A study of Mus musculus with 18 samples.

Results

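*Thy1* and 9 further genes of adventitial fibroblasts were followed in bulk RNA-seq of mouse aortae carrying edits of the *Tspan2* CArG box, the site bound by serum response factor in that promoter. The 10 genes, of 55453 gene symbols in each table of read counts, were taken by symbol: *Thy1*, *Pdgfra*, *Cd34* and *Ly6a* at the cell surface, *Hmcn2*, *Dcn*, *Lum* and *Dpt* in the matrix, and *Pi16* and *Clec3b* among the secreted proteins. *Thy1* and *Hmcn2* were chosen by their lower levels in the HDR mutants, so every HDR value of the 10 genes is given as a description without a test. The PE2 contrast did not pick those genes and was tested, but its results were known when the 10 genes were listed, so the direction over the list is no independent support.

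The HDR experiment held 5 wild-type and 5 *Tspan2* sg/sg aortae of mice aged 12 weeks, labelled C57BL/6, with 3 females and 2 males per genotype. The sg/sg mice are homozygous for base substitutions placed by homology-directed repair (HDR) of a Cas9 cut. The PE2 experiment held 4 wild-type and 4 *Tspan2* peg/peg aortae of mice aged 8 weeks, labelled FVB/N/B6(Cg)-Tyrc-2J/J, with 3 females and 1 male among the wild types and 4 peg/peg females. The peg/peg mice are homozygous for a base substitution written by the prime editor PE2, a Cas9 nickase joined to a reverse transcriptase. Both edits are in the germline and therefore in every cell type, and each library came from 1 aorta that had been cleaned of periadventitial tissue. The HDR columns are named WT_2 to WT_6 and Mut_2 to Mut_6, which gives the genotype but not the sex of each library. Separate mice stand behind each label, so the spread among libraries includes that among animals.

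The adventitia is the outer coat of the aorta, in which fibroblasts lie among collagen bundles with macrophages, nerves and small vessels. These fibroblasts carry Thy1, Pdgfra, Cd34 and Sca-1 (the product of *Ly6a*) on their surface and make small leucine-rich proteoglycans such as decorin and lumican, which bind collagen fibrils. A subset with *Pi16*, *Dpt* and *Cd34* is found in many organs and is regarded as a progenitor-like state.

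Sequence is shown for *Hmcn2* and *Dpt*, because these were the members whose highest level was not in peg/peg replicate 3, the library that stood apart from the rest. RefSeq windows of 300 bases, from 250 bases before to 50 bases after the start, matched 5 of the 10 genes (*Hmcn2*, *Pdgfra*, *Pi16*, *Dpt* and *Cd34*); *Thy1*, *Ly6a*, *Dcn*, *Lum* and *Clec3b* are named only. Capitals mark TGAGTCA, the AP-1 motif, and TATAAA, the letters of a TATA box, both searched on both strands and not overlapping each other. The TATAAA of *Dpt* is at position 263 of its window, after the start, so it is marked as a match of letters only. Both windows are on the plus strand of GRCm38.p6.
Hmcn2, chr2:31314082-31314381: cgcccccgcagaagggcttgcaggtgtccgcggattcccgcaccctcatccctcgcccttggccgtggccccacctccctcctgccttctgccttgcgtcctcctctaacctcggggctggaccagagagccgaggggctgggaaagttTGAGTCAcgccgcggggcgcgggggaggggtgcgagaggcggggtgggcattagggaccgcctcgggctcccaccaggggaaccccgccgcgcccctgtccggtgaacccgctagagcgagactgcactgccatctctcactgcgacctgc
Dpt, chr1:164796413-164796712: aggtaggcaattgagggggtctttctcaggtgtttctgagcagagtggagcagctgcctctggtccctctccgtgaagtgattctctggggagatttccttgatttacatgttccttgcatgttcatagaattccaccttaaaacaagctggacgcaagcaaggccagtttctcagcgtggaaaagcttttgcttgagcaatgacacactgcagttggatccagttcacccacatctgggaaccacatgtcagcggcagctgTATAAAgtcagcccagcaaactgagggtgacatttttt

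The 2 windows differed in base composition, with 70.7% G and C in *Hmcn2* and 48.7% in *Dpt*, against a median of 52.7% over all 32851 windows. TGAGTCA was found in 1 of the 5 members' windows (*Hmcn2*) and in 5.2% of all windows, and TATAAA in 1 of 5 (*Dpt*) and in 13.6% of all. A CArG box, 2 C, then 6 A or T, then 2 G, was found in 0 of 5 windows and in 1.63% of all. These are matches of letters in short windows and no measure of binding.

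Total counts per library ran from 17290992 to 24880385 in the HDR experiment and from 38820265 to 44895615 in the PE2 experiment. *Tspan2* was lower in every mutant library than in any wild type of its experiment, with log2 fold changes of -3.07 (HDR) and -3.45 (PE2). All 10 members had enough reads to be tested in both experiments, among 16423 and 16401 genes. As markers of the labelled tissue, *Myh11* and *Acta2* were the highest smooth muscle genes of the HDR and PE2 libraries at a mean of 9807 and 18205 CPM (counts scaled to library size by edgeR's TMM factors). In such bulk tissue, fewer fibroblasts and less RNA per fibroblast cannot be told apart.

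One library stood apart where these genes are concerned. Peg/peg replicate 3 held the highest level of 8 of the 10 members, all except *Hmcn2* and *Dpt*, whereas it held the highest level of 30.8% of all genes tested. Its level was more than 1.5 times that of any other PE2 library for 4 of 10 members (*Dcn*, *Pdgfra*, *Clec3b* and *Lum*) and for 10.7% of all genes. Its mesothelium markers summed to 786 CPM against at most 41.7 in the other PE2 libraries, its cardiac and skeletal muscle markers to 1133 and 1134 CPM, and its endothelial markers to 786 CPM, the lowest of the experiment. Its smooth muscle markers summed to 66028.5 CPM against at most 47731 in the other PE2 libraries. Its adipocyte markers summed to 1043 CPM against at least 2059. Mitochondrial transcripts made up 3.70% of its reads and 7.47 to 12.4% of the other PE2 libraries' reads. Their part in the members' levels was not tested, and PE2 fold changes are therefore given with and without it.

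**Figure D1:**
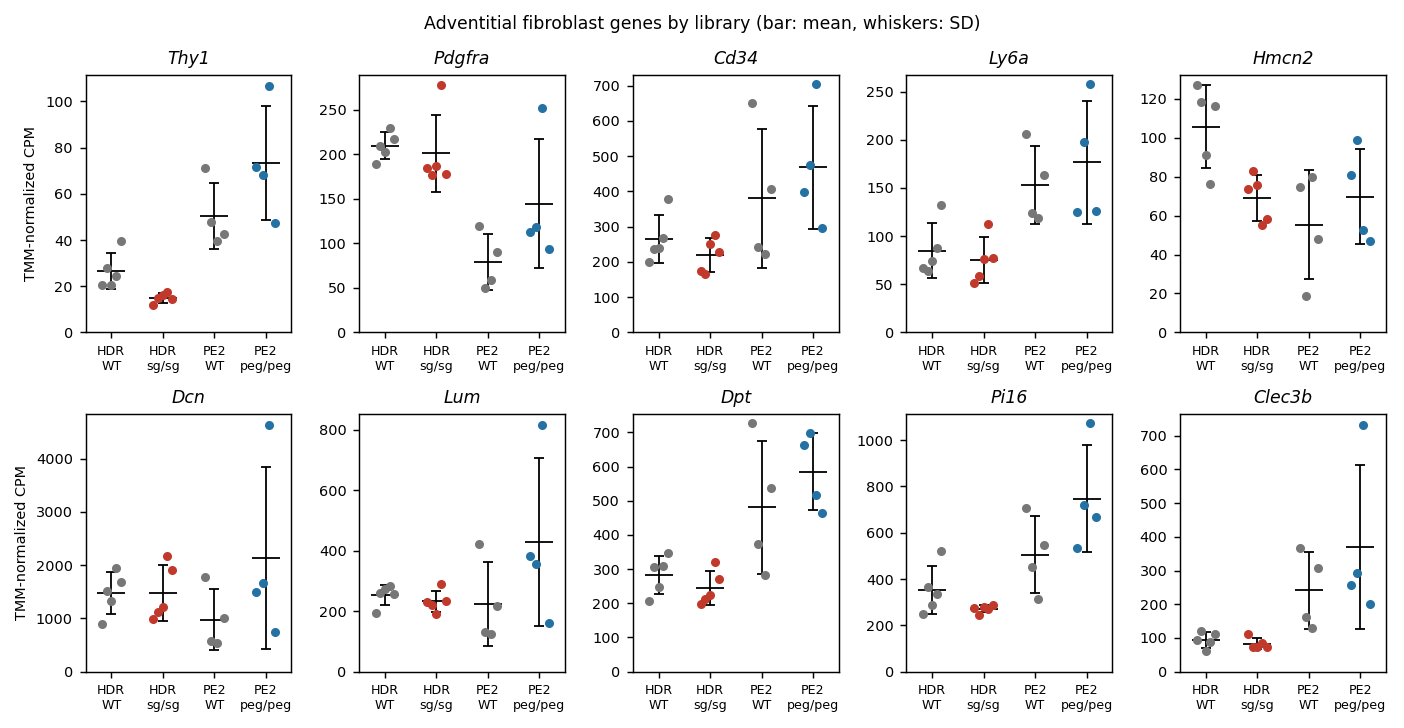
TMM-normalized CPM of each gene in the 18 libraries, 1 panel per gene with its own linear axis from 0; points are libraries (5, 5, 4 and 4), bars are group means and whiskers SD. The HDR sg/sg points of *Thy1* (11.7 to 17.5 CPM) lie below all HDR wild-type points, and 1 peg/peg point stands far above the rest for *Dcn*, *Lum*, *Pdgfra* and *Clec3b*.

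In HDR aortae *Thy1* was the only member whose genotypes did not overlap. *Thy1* (ENSMUSG00000032011, chr9:44043384-44048579, plus strand, GRCm38) encodes a glycosylphosphatidylinositol-anchored protein of the immunoglobulin superfamily that is also carried by T lymphocytes and neurons. Its level was 20.5, 27.9, 20.6, 24.4 and 39.7 CPM in WT_2 to WT_6 and 11.7, 15.0, 16.1, 17.5 and 14.3 CPM in Mut_2 to Mut_6. The highest mutant library thus lay below the lowest wild type, with 214 to 939 reads behind each value, and WT_6 stood above the other wild types. The means were 26.6 ± 7.93 and 14.9 ± 2.19 CPM (SD, n = 5 each), a log2 fold change of -0.83 (SE 0.19), which was -0.65 without WT_6. Non-overlap in this direction was met by 0.195% of all genes tested, and since this contrast chose *Thy1*, nothing is read from that share.

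In PE2 aortae *Thy1* stood the other way and its genotypes overlapped. The wild types 1 to 4 had 71.1, 48.0, 39.5 and 42.7 CPM, and peg/peg replicates 1 to 4 had 71.5, 68.1, 107 and 47.2 CPM. Peg/peg replicate 3 was highest, yet wild-type replicate 1 was about level with peg/peg replicate 1. The log2 fold change was 0.54 (SE 0.27, edgeR adjusted p = 0.861, exact permutation p = 0.171, two-sided), and 0.30 (SE 0.23) without peg/peg replicate 3. The difference between the 2 experiments was not tested, because the HDR contrast had chosen the gene.

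*Pdgfra* (chr5:75152292-75198215, plus strand) encodes the receptor for platelet-derived growth factor A. In HDR wild types it lay in a narrow band of 189, 210, 202, 230 and 217 CPM. The sg/sg libraries had 184, 177, 187, 278 and 178 CPM, so 4 of 5 were below every wild type and Mut_5 was above all of them. Its log2 fold change of -0.06 (SE 0.14) thus averaged over libraries on both sides, and it was -0.21 without Mut_5.

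*Pdgfra* in the PE2 experiment ranged more widely, with 119, 50.3, 58.3 and 90.2 CPM in the wild types and 113, 119, 252 and 93.7 CPM in peg/peg. All 4 mutant libraries were above the wild-type mean of 79.4 CPM, but wild-type replicate 1 was as high as peg/peg replicates 1 and 2. It had the smallest p of the members (log2 fold change 0.86, SE 0.38, edgeR unadjusted p = 0.0543, adjusted p = 0.861, exact permutation p = 0.143), and without peg/peg replicate 3 the log2 fold change was 0.44. DESeq2 gave an adjusted p of 0.870 for it. An annotated antisense gene, a gene of unclassified type and a microRNA overlap *Pdgfra*, and antisense genes overlap *Cd34*, *Dpt* and *Pi16*. Whether reads were counted by strand is not given in the sources used here, so these values may hold reads of both.

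*Cd34* (chr1:194938819-194961279, plus strand), a sialomucin shared with endothelial cells, had 200 to 378 CPM in HDR wild types and 167 to 277 CPM in sg/sg, with WT_6 highest. *Ly6a* (chr15:74994877-74998031, minus strand), which encodes Sca-1, had 64.0 to 133 CPM and 51.4 to 113 CPM, again with WT_6 highest. Their log2 fold changes were -0.27 (SE 0.19) and -0.17 (SE 0.24), and without WT_6 they were -0.11 and 0.04. In PE2 aortae *Cd34* spanned 223 to 650 CPM in wild types and 296 to 704 CPM in peg/peg, and *Ly6a* 119 to 206 CPM and 125 to 257 CPM. Their PE2 log2 fold changes of 0.30 (SE 0.40) and 0.21 (SE 0.28) went to 0.03 and -0.04 without peg/peg replicate 3. Neither PE2 difference was larger than its standard error.

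Among the matrix genes, *Hmcn2* differed most between HDR genotypes. *Hmcn2* (ENSMUSG00000055632, chr2:31314415-31460738, plus strand) encodes hemicentin 2, a very large extracellular protein of immunoglobulin domains. Its HDR level was 127, 118, 91.2, 76.2 and 116 CPM in the wild types and 73.7, 82.7, 75.7, 55.3 and 58.5 CPM in sg/sg. The mutant library with 82.7 CPM overlapped the wild type with 76.2 CPM, and the other 4 mutants were below every wild type. On the log2 scale the difference was -0.61 (SE 0.16) and lay between -0.71 and -0.54 with any 1 library left out.

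*Hmcn2* did not keep that order in the PE2 experiment. The wild types had 74.5, 18.8, 80.1 and 47.9 CPM and peg/peg had 80.8, 99.0, 52.4 and 47.1 CPM. Wild-type replicate 2 was far below all others, and the remaining libraries of both genotypes were mixed. A log2 fold change of 0.34 (SE 0.44, edgeR adjusted p = 0.888, exact permutation p = 0.457) went to 0.05 without wild-type replicate 2. Peg/peg replicate 3, highest for 8 members, held 18.8% of the peg/peg total of this gene, the next to lowest share among its group.

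*Dcn* and *Lum*, neighbours on chromosome 10 (chr10:97479609-97518143 and chr10:97565128-97572703, plus strand), encode decorin and lumican. In HDR aortae *Dcn* was level between genotypes, with 896 to 1947 CPM in wild types and 989 to 2167 CPM in sg/sg (log2 fold change 0.01, SE 0.26). *Lum* was 196 to 283 CPM and 192 to 289 CPM (-0.12, SE 0.14). For both, Mut_5 was the highest library, as it was for *Pdgfra*.

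In PE2 aortae the highest library of *Dcn* was 8.56 times the lowest, the widest span of any member. Its wild types had 1785, 582, 541 and 1005 CPM, and peg/peg had 1499, 1666, 4630 and 744 CPM. Peg/peg replicate 3 held 54.2% of the peg/peg total and was 2.59 times the next library. The log2 fold change of 1.13 (SE 0.61, edgeR adjusted p = 0.861, exact permutation p = 0.257) was 0.40 (SE 0.46) without that library and 1.58 without wild-type replicate 1. *Lum* followed *Dcn* from library to library, from 124 to 423 CPM in wild types and from 160 to 816 CPM in peg/peg (0.94, SE 0.56), and 0.41 without peg/peg replicate 3.

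*Dpt* (chr1:164796644-164824266, plus strand) encodes dermatopontin, a small tyrosine-rich matrix protein that binds decorin. It had 206 to 346 CPM in HDR wild types and 198 to 320 CPM in sg/sg, with WT_6 highest and Mut_2 lowest (log2 fold change -0.21, SE 0.17). In PE2 aortae it had 727, 374, 283 and 537 CPM in wild types and 663, 697, 516 and 463 CPM in peg/peg. The 4 peg/peg libraries all lay inside the wild-type range, and peg/peg replicate 3 was not raised, with 22.1% of the peg/peg total. The log2 fold change was 0.28 (SE 0.30, edgeR adjusted p = 0.871) and 0.33 without peg/peg replicate 3, but it was 0.09 without wild-type replicate 3 and 0.55 without wild-type replicate 1.

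*Pi16* (chr17:29317680-29330593, plus strand), a peptidase inhibitor of the CAP family, differed in spread as well as level in HDR aortae. Its wild types had 249, 366, 289, 334 and 519 CPM, and its sg/sg libraries had 275, 246, 277, 270 and 286 CPM. All 5 mutants were below the wild-type mean of 351 CPM, but only 1 was below the lowest wild type, and the SD was 15.1 CPM against 104 CPM. Its log2 fold change was -0.38 (SE 0.18), and -0.19 without WT_6.

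*Pi16* in PE2 aortae had 707, 453, 313.05 and 549 CPM in wild types and 534, 718, 1072 and 666 CPM in peg/peg. All 4 peg/peg libraries were above the wild-type mean of 505 CPM, and the groups overlapped. The log2 fold change was 0.56 (SE 0.30, edgeR adjusted p = 0.861, exact permutation p = 0.171), and 0.33 without peg/peg replicate 3. *Clec3b* (chr9:123150946-123157432, plus strand), which encodes tetranectin, a plasminogen-binding lectin, had 60.6 to 122 CPM in HDR wild types and 72.1 to 112 CPM in sg/sg (-0.20, SE 0.19). In PE2 aortae it had 129 to 368 CPM and 200 to 731 CPM (0.62, SE 0.49), and without peg/peg replicate 3 the difference was 0.05.

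**Figure D2:**
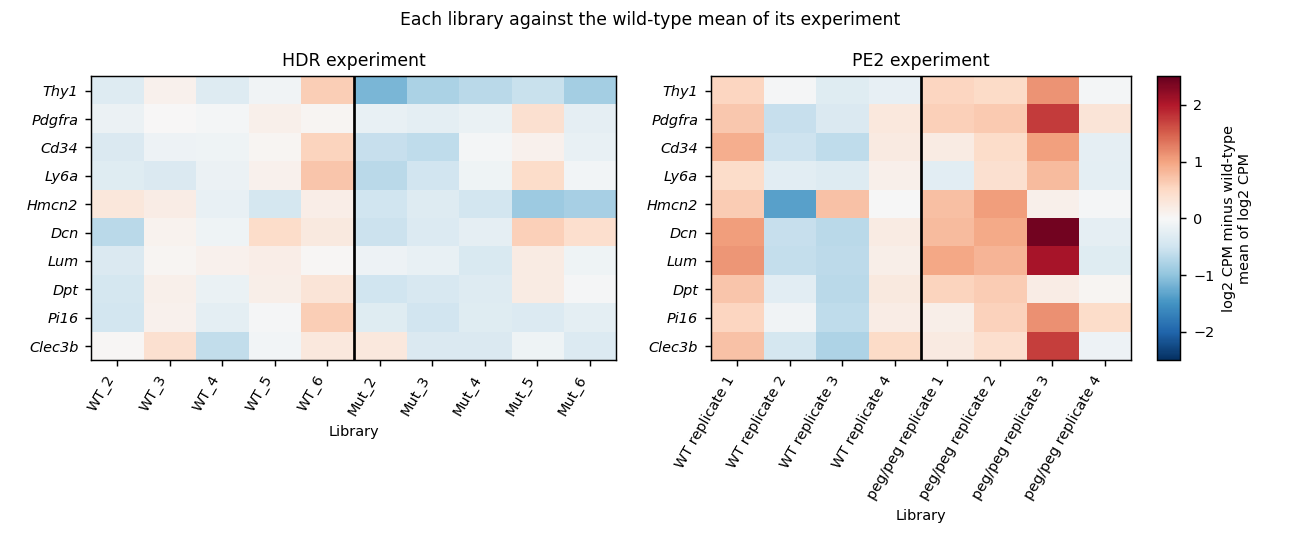
Heat map of log2 CPM of each gene (rows) in each library (columns) minus the mean log2 CPM of the wild types of the same experiment, HDR at left and PE2 at right, with a black line between genotypes. The *Thy1* row is below the wild-type mean in all 5 sg/sg libraries, and the column of peg/peg replicate 3 is raised most for *Dcn* and *Lum*.

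Set side by side, the members leaned down in HDR mutants and up in PE2 mutants. In HDR aortae 9 of 10 were below 0 on the log2 scale, where 49.1% of all genes were, with a median of -0.20 against 0.00 for all genes; the choice of *Thy1* and *Hmcn2* used this contrast. In PE2 aortae 10 of 10 were above 0, where 52.2% of all genes were, with a median of 0.55 against 0.01. Most of these genes went up and down together from library to library, and they are not 10 independent observations. Without peg/peg replicate 3 the PE2 median was 0.33 and 9 of 10 were above 0, where 46.8% of all genes were. Without WT_6, the highest library for 5 of the 10 members, the HDR median was -0.12. Then 8 of 10 were below 0, where 7983 of 16685 genes were. The smooth muscle marker list also leaned up in PE2 aortae, with 7 of 10 above 0, 3 below and a median of 0.58. Without peg/peg replicate 3 its median was 0.05, with 8 above 0 and 2 below. In HDR aortae its median was 0.10, with 6 above 0 and 4 below.

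No single member passed a test in PE2 aortae. edgeR, limma-voom and DESeq2 each called 0 of 10 at an adjusted p of 0.05, where edgeR and limma-voom called 0.0061% and DESeq2 0.114% of all genes. At an unadjusted p of 0.05 edgeR and limma-voom gave 0 of 10 and DESeq2 1 (*Pdgfra*). Over all genes edgeR gave 4.3%, limma-voom 537 of 16401 and DESeq2 1037 of 28910. The exact permutation p of the members lay between 0.143 and 0.571, and 4 against 4 libraries can reach 0.0286. Without wild-type replicate 1, the highest wild type for 9 members, edgeR gave 5 of 10 at an unadjusted p of 0.05, where it gave 4% of all genes. Without peg/peg replicate 4 it gave 4 of 10 and 9.26% of all genes. Each time 0 members, and 0 of all genes, passed the adjusted threshold.

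**Figure D3:**
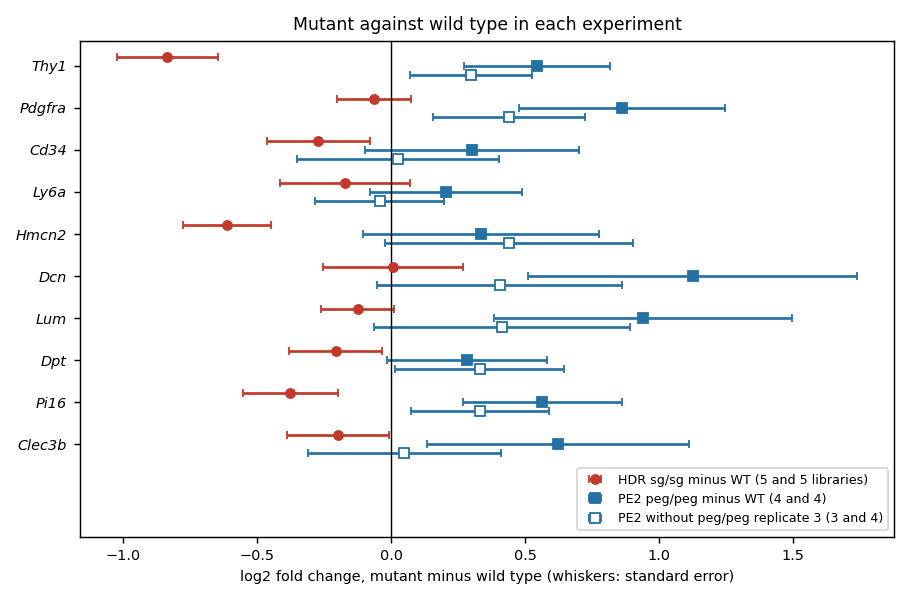
Log2 fold change, mutant minus wild type, of each gene in HDR (red circles, 5 against 5 libraries), in PE2 (filled blue squares, 4 against 4) and in PE2 without peg/peg replicate 3 (open squares, 3 against 4); whiskers are standard errors. *Thy1* (-0.83) and *Hmcn2* (-0.61) stand furthest below 0 in HDR, and leaving out 1 PE2 library takes *Dcn* from 1.13 to 0.40.

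*Thy1* was also taken as a percentage of the geometric mean of the 8 members other than *Thy1* and *Hmcn2*. In HDR wild types it was 10.5, 11.01, 9.32, 9.09 and 12.6%, and in sg/sg 5.92, 7.92, 7.68, 6.21 and 6.22%. The genotypes did not overlap, with means of 10.5 ± 1.43 and 6.79 ± 0.935% (SD, n = 5 each), while that geometric mean itself overlapped widely, at 195 to 314 CPM and 189 to 282 CPM. Of all genes set against the same 8 in this way, 0.11% did not overlap in this direction; *Thy1* was chosen by the HDR contrast, so nothing is read from its place among them.

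In PE2 aortae the same percentage was 15.2, 23.4, 21.8 and 13.2% in wild types and 19.8, 16.2, 14.9 and 17.7% in peg/peg. All peg/peg values lay inside the wild-type range, with means of 18.4 ± 4.94 and 17.1 ± 2.09% (SD, n = 4 each). Peg/peg replicate 3, highest for *Thy1* itself, was lowest of its genotype here. *Hmcn2* overlapped between genotypes on this scale in both experiments, at 43.7 ± 13.7 against 32.5 ± 9.78% in HDR and 21.0 ± 15.7 against 17.7 ± 7.38% in PE2 aortae.

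**Figure D4:**
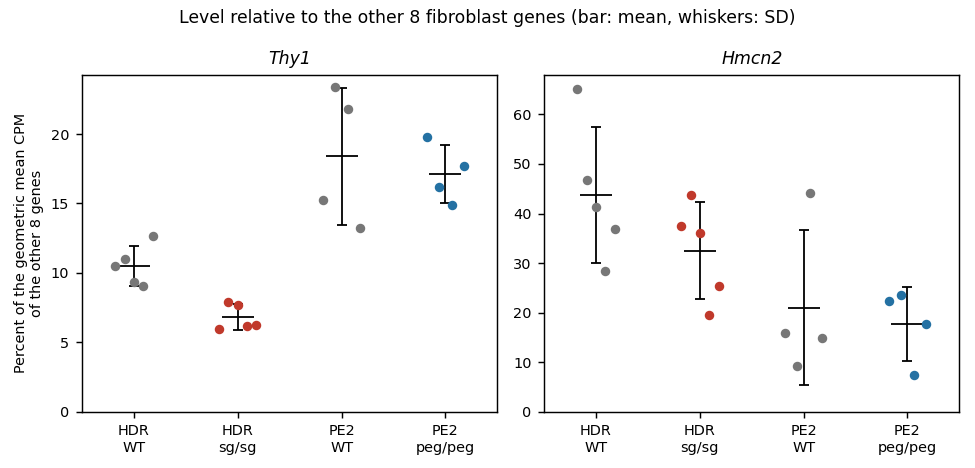
*Thy1* (left) and *Hmcn2* (right) CPM as a percentage of the geometric mean CPM of the other 8 genes, 1 point per library, with bars for group means and whiskers for SD on linear axes from 0. The HDR sg/sg points of *Thy1* (5.92 to 7.92%) lie below the HDR wild types (9.09 to 12.6%), and the other pairs of genotypes overlap.

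Levels between genes were compared per length of exon, as RPKM (CPM divided by exon length in kilobases). In HDR wild types *Dcn* was highest at 252 ± 67.8 RPKM (SD, n = 5), followed by *Dpt* (164), *Lum* (104), *Clec3b* (95.9), *Ly6a* (70.5), *Pi16* (55.2), *Cd34* (36.3), *Pdgfra* (20.9), *Thy1* (8.89) and *Hmcn2* (6.58). *Lum* and *Clec3b*, *Ly6a* and *Pi16*, and *Thy1* and *Hmcn2* were neighbours that differed by less than the larger of their SDs. *Thy1* was therefore among the least abundant of these transcripts, some way below the other surface markers.

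In PE2 wild types the order began with *Dpt* (279 ± 113 RPKM, SD, n = 4), *Clec3b* (243) and *Dcn* (168), and none of the first 5 differed from its next neighbour by more than the larger SD. *Thy1* (16.8 RPKM) now stood above *Pdgfra* (7.92 RPKM), the reverse of their HDR order, and *Hmcn2* (3.44 RPKM) was again last. In CPM, *Pdgfra* was 2.64 times as high in HDR as in PE2 wild types and *Clec3b* 2.53 times as high in PE2 as in HDR wild types, with no overlap of libraries, while the other 8 members overlapped. Non-overlap of this kind was met by 47.3% of all genes, so it was common. The tables were normalized separately and the experiments differ in age, strain label and depth, which cannot be told apart.

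The genes most like *Thy1* were ranked by Pearson's r of log2 CPM after each genotype's mean was removed, over 18 libraries and 14761 genes. *Fcgr3*, an Fc receptor of macrophages (r = 0.906, Spearman's rho 0.769), and *Lyve1*, the hyaluronan receptor of resident macrophages and lymphatic endothelium (r = 0.906, rho 0.806), were the closest. They were followed by *Stmn1*, a tubulin-binding protein (r = 0.905, rho 0.928), *Ctss*, a lysosomal protease (r = 0.905, rho 0.796), and *Cers6*, a ceramide synthase (r = 0.904, rho 0.878). Without the 2 libraries furthest from the median of *Thy1* these r were 0.835 to 0.895. These values describe which transcripts went up and down together in whole aortae of mixed cell composition, and carry no test.

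A different set stood closest to *Hmcn2*: *Kif13b*, a kinesin (r = 0.915, rho 0.837), *Sh2d4b* (r = 0.898, rho 0.953), *Nckipsd* (r = 0.859, rho 0.769), *Cacna2d2*, a calcium channel subunit (r = 0.844, rho 0.785), and *Dock9*, a guanine nucleotide exchange factor (r = 0.841, rho 0.775). None of the 5 was among those of *Thy1*. Without the 2 furthest libraries r fell to 0.670 for *Cacna2d2* and stood at 0.932 for *Sh2d4b*.

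The marker lists of other cell types were also chosen with earlier results of these data known. Their counts and p-values are therefore no independent support. Among them, the macrophage, neuron, Schwann cell, mesothelium and cardiac muscle lists had medians on the same side as *Thy1* in both experiments. In HDR aortae 10 of 10 macrophage genes were below 0 on the log2 scale (median -0.74). Of these, 8 had an edgeR unadjusted p below 0.05, where 1.63% of all genes were lower, with 0 at the adjusted threshold. Without WT_6 the median was -0.41 and 1 of the 10 had such a p, where 144 of 16685 genes were lower. Their summed level was 241 to 746 CPM in wild types and 180 to 359 CPM in sg/sg, with WT_6 highest as for *Thy1*.

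In PE2 aortae 10 of 10 macrophage genes were above 0 (median 0.59), with 0 at an unadjusted p of 0.05, and their sum was 160 to 610 CPM in wild types and 312 to 962 CPM in peg/peg. That highest sum was in peg/peg replicate 3, and without this library 4 of 10 were above 0, with a median of -0.01. The macrophage direction thus rested on 1 PE2 library.

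Schwann cell genes were 7 of 8 below 0 in HDR aortae (median -0.29, and -0.09 without WT_6) and 6 of 8 above 0 in PE2 aortae (0.70, and 0.72 without peg/peg replicate 3). Mesothelium genes were 6 of 7 below 0 (-0.69, and -0.90 without WT_6) and 7 of 7 above 0 (4.10, and 0.52 with 6 of 7 above 0 without peg/peg replicate 3), and cardiac muscle genes 5 of 6 below 0 (-0.62, and -0.85 without WT_6) and 7 of 7 above 0 (2.58, and 1.36 with 6 of 7 above 0 without that library). At an edgeR unadjusted p below 0.05, 1 mesothelium and 2 cardiac muscle genes were lower in HDR aortae, where 1.63% of all genes were. In PE2 aortae 6 of 7 mesothelium and 4 of 7 cardiac muscle genes were higher, where 3.04% of all genes were. Without peg/peg replicate 3 these were 0 and 6, where 365 of 16668 genes were higher. The part of these cell types in the *Thy1* values was not tested.

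T lymphocytes and neurons also carry Thy1. T lymphocyte and thymocyte markers summed to 2.56 to 16.2 CPM in HDR wild types and 2.65 to 13.0 CPM in sg/sg, and to 4.94 to 18.5 CPM and 4.12 to 7.23 CPM in PE2 aortae. In HDR aortae 3 of the 6 T lymphocyte genes tested were above 0 and 3 below (5 and 1 without WT_6), and in PE2 aortae 2 of 9 were above and 7 below (1 and 8 without peg/peg replicate 3). At an edgeR unadjusted p below 0.05, 4 of the 9 were lower in PE2 aortae, where 208 of 16401 genes were. Without peg/peg replicate 3 this was 3 of 9, where 318 of 16668 genes were lower. Neuron markers summed to 8.54 to 50.3 CPM and 8.99 to 30.5 CPM in HDR, and to 17.03 to 181 CPM and 16.7 to 278 CPM in PE2 aortae, where 7 of 7 tested were above 0 (median 1.04, and 1.39 with 7 of 8 above 0 without peg/peg replicate 3). In HDR aortae 2 neuron genes were tested, 1 on each side of 0 (median -0.29).

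Adipocyte markers were 10 of 10 below 0 in HDR aortae (median -0.48, highest in WT_6 at 8017 CPM), and without WT_6 they were 7 of 10 below 0 (median -0.08). In PE2 aortae 9 of 10 were below 0 (median -0.69, and -0.36 without peg/peg replicate 3). Every gene of these lists had reads in both experiments, and their part in the members' values was not tested.

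**Figure D5:**
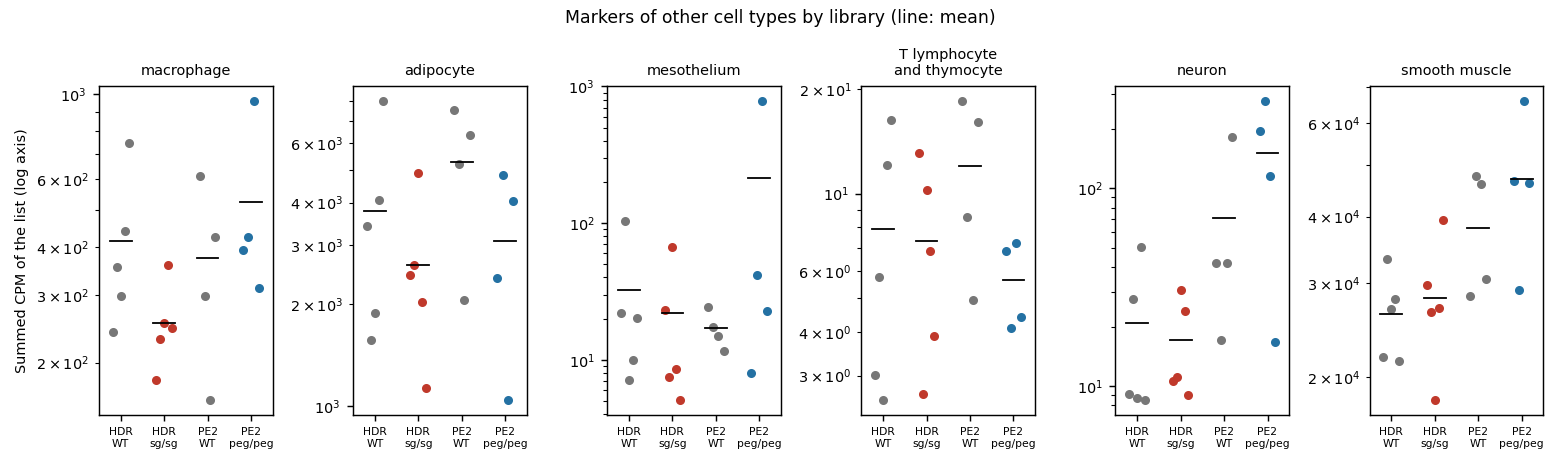
Summed CPM of marker lists of 6 other cell types in each library, log axes, 1 panel per list; points are libraries and lines are group means. Macrophage markers lie at 180 to 359 CPM in sg/sg and 241 to 746 CPM in HDR wild types, and mesothelium markers stand at 786 CPM in peg/peg replicate 3.

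The lists of further adventitial genes were chosen with earlier results of these data known. Their counts and p-values are therefore no independent support. Of 40 further adventitial fibroblast genes (10 surface, 15 matrix and 15 secreted), all were tested and 33 were below 0 in HDR aortae, with a median of -0.16. Without WT_6, 25 were below 0, with a median of -0.06. edgeR, limma-voom and DESeq2 called 0 of 40 at an adjusted p of 0.05, where edgeR and limma-voom called 0.00609% and DESeq2 0.00933% of all genes. edgeR gave 4 lower (3 without WT_6, when *Cd55* was lost) and 0 higher at an unadjusted p of 0.05, where 1.63% of all genes were lower. These 4 were *Cd248*, endosialin (-0.54, SE 0.17), *Cd55*, a complement regulator (-0.83, SE 0.32), *Fndc1*, a fibronectin type III domain protein (-0.56, SE 0.16), and *Col14a1*, a fibril-associated collagen (-0.40, SE 0.14). *Col14a1* did not overlap between genotypes, at 644 to 840 CPM in wild types and 432 to 625 CPM in sg/sg, where 0.317% of all genes did not overlap in either direction.

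The next smallest p of the role lists belonged to *Pdpn* (-0.47), *Efemp1* (-0.50), *C1s1* (-0.20), *Igfbp4* (-0.22) and *Gas6* (0.11), all with an edgeR adjusted p of 1.00. The secreted list had 10 of 15 below 0, against 9 of 10 on the surface list and 14 of 15 in the matrix list. The median was -0.20 on the surface, -0.15 in the matrix and -0.12 among the secreted proteins.

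In PE2 aortae 26 of the same 40 genes were above 0, with a median of 0.20 (28, with a median of 0.11, without peg/peg replicate 3), and edgeR, limma-voom and DESeq2 again called 0 of 40. edgeR gave 4 higher and 0 lower at an unadjusted p of 0.05, where 3.04% of all genes were higher, and all 4 were matrix genes: *Fndc1* (0.80, SE 0.27), *Efemp1* (2.18, SE 0.87), *Col14a1* (0.38, SE 0.15) and *Fbln1* (1.84, SE 0.79), the last named after its values were seen. *Fndc1* had 47.1 to 103 CPM in wild types and 96.4 to 180 CPM in peg/peg. *Efemp1* and *Fbln1* reached 222 and 1935 CPM in their highest peg/peg library, against at most 20.3 and 279 CPM in wild types, and their spread among peg/peg libraries exceeded their mean. Without peg/peg replicate 3 the log2 fold changes were 0.63 (*Fndc1*), 0.47 (*Efemp1*), 0.30 (*Col14a1*) and 0.35 (*Fbln1*), and of these 4 *Fndc1* alone kept an unadjusted p below 0.05. *Fndc1* and *Col14a1* were thus among the lower genes in HDR mutants and the higher genes in PE2 mutants at that threshold with all libraries. The share of all genes that did so was not counted, so nothing is read from this. The difference between the experiments was not tested.

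Other PE2 genes with the smallest p of their lists were *Cd55* (1.79, SE 0.85), *Pdpn* (1.42, SE 0.75) and *Scara5* (1.08, SE 0.58) on the surface and *Igfbp4* (0.32, SE 0.16), *C1s1* (0.86, SE 0.50) and *Gsn* (0.55, SE 0.33) among the secreted proteins, none of which passed the adjusted threshold. Without peg/peg replicate 3 these were 0.08, 0.06 and 0.40 on the surface and 0.19, 0.14 and 0.33 among the secreted proteins. *Cd55* and *Pdpn* overlapped between genotypes, from 14.7 to 33.3 and from 20.4 to 237 CPM for *Cd55*. By list, 8 of 10 surface genes, 7 of 15 matrix genes and 11 of 15 secreted genes were above 0, and without peg/peg replicate 3 these were 9, 10 and 9.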

How the data were processed

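Aortic poly(A) RNA of 18 mice was sequenced as single-end reads. The authors aligned reads to GRCm38 with Gencode M22 annotation by STAR 2.7.0f, counted them per gene with featureCounts (Subread 1.6.4) and deposited raw counts; their DESeq2 1.22.1 normalized tables were not used. Strand setting is not given in the sources used here, and labels and methods name different library kits. All columns of counts were used (0 left out).

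Each experiment was fitted alone with edgeR 4.0.16 (filterByExpr, TMM, quasi-likelihood F-test, Benjamini-Hochberg adjustment over all genes tested, threshold 0.05), with DESeq2 1.42.0 and limma-voom (limma 3.58.1) as alternatives, in R 4.3.3; single genes also had exact two-sided permutation tests (scipy 1.17.1). The fits were also run on simulated counts with the same dispersion for every gene and no outlying library. That run does not cover the spread seen among PE2 libraries. Positions and exon lengths for RPKM came from Gencode M21, the release at hand. HDR libraries were grouped by column name, since the numbers there match no label. Replicate libraries differed by at least 17.2 times the sampling variance (chi-square over its degrees of freedom), so none was a copy. Counting precision is set by 214 to 939 reads for *Thy1* in HDR libraries and 1742 to 4867 in PE2 libraries.

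The members and gene lists were chosen with earlier results of these data known. Named genes were the 10 members, *Tspan2*, further adventitial genes called at an adjusted p of 0.05, the 3 of each role list with the smallest p, the 5 genes most like *Thy1* and *Hmcn2* (a prior count of 2 in log2 CPM), and the highest of other lists. *Wisp2* was read as *Ccn5*.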

Additional observations from a re-analysis of the deposited data

Results flagged for a closer look

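Single libraries far from the others of their group were sought with Dixon's gap ratio, and 11 were found. The search covered 104 sets of values, each member and each summed marker list in each genotype. For independent, normally distributed values the limits used would be passed in about 1 in 20 sets. These values are CPM without logs, and sets share genes and libraries, so 11 is not read as an excess. Among members, *Pdgfra* was 278 CPM in Mut_5 against 177 to 187 CPM in the other sg/sg libraries and 252 CPM in peg/peg replicate 3 against 93.7 to 119 CPM. *Lum* was 196 CPM in WT_2 against 258 to 283 CPM in the other HDR wild types.

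Among marker lists, WT_3 of the HDR experiment had 104 CPM of mesothelium and 128 CPM of skeletal muscle markers, against at most 22.1 and 7.95 CPM in the other wild types. Peg/peg replicate 3 had 786 CPM of mesothelium, 1133 CPM of cardiac and 1134 CPM of skeletal muscle markers, against at most 41.7, 218 and 15.7 CPM in the other peg/peg libraries. Wild-type replicate 3 of the PE2 experiment had 147 CPM of cardiac markers against at most 66.6 CPM. The further secreted fibroblast genes summed to 7712 CPM in PE2 wild-type replicate 1 against 5783 to 5943 CPM, and neuron markers to 181 CPM in PE2 wild-type replicate 4 against at most 42.1 CPM.

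*Pi16* was below the wild-type mean in every sg/sg library (log2 fold change -0.38) and above it in every peg/peg library (0.56). The difference between the experiments was not tested.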

How the results depend on the processing

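Alternatives were limma-voom, the Wald test or the size factors of DESeq2, robust dispersions, a filter of 10 counts in each library or of 1 count in all, an adjusted p of 0.1 and the removal of each library, and for PE2 also the replicate block, a sex term and females alone. In all of them 0 members were called in PE2 and 0 of the 40 further genes in either experiment. In the main PE2 fit the 1 call over all genes was *Tspan2* (edgeR adjusted p = 0.0292). With the replicate block, the sex term or females alone, 0 of all genes were called, so *Tspan2* was missed too. The same held without wild-type replicate 1, 2 or 4 and without peg/peg replicate 1, 2 or 4. In those settings a count of 0 members cannot tell whether the members changed. Members' median log2 fold change lay between -0.35 (without Mut_5) and -0.12 (without WT_6) in HDR, and between 0.33 (without peg/peg replicate 3) and 0.76 (without wild-type replicate 1) in PE2 aortae. *Ly6a* reversed in PE2 from 0.21 to -0.043 without peg/peg replicate 3; with single PE2 libraries left out it lay between -0.043 and 0.37. In HDR, *Ly6a* ranged from -0.37 to 0.04 and *Dcn* from -0.17 to 0.12. The count of PE2 members at an unadjusted p of 0.05 was 1 with DESeq2 and 1 without the filter, and 0 to 5 with single libraries left out. The cause was not tested.

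Same-numbered PE2 libraries did not deviate together (r across genes 0.016, -0.23, -0.057 and -0.29), so the numbers do not pair them. Differently numbered PE2 libraries had r from -0.26 (wild-type replicate 1 and peg/peg replicate 4) to 0.42 (wild-type replicate 2 and peg/peg replicate 4). With the replicate block the members' median was 0.52, *Thy1* was 0.52 (SE 0.26), and the calls over all genes went from 1 to 0. The HDR column numbers are not those of the labels. Same-numbered HDR columns had r of 0.57, 0.12, -0.20, 0.42 and 0.30. Differently numbered columns had r from -0.58 (WT_2 and Mut_6) to 0.50 (WT_2 and Mut_3). WT_2 and WT_3 had r of 0.12 to 0.57 with Mut_2 to Mut_4, and -0.58 to -0.21 with Mut_5 and Mut_6. WT_5 and WT_6 had r of 0.30 to 0.49 with Mut_5 and Mut_6, and -0.48 to 0.02 with Mut_2 to Mut_4. For WT_4 r lay between -0.20 and 0.30. Some HDR libraries of both genotypes thus deviated together. What they shared, sex included, was not tested, and the main HDR fit held no term for it. With the column number as a replicate block, chosen after seeing the data, the HDR median was -0.19, *Thy1* was -0.80 (SE 0.16) and calls over all genes stayed at 1. Every member's SE was smaller with that block than in the main fit. With 4 libraries per genotype and SEs of 0.27 to 0.61, differences of the size seen were not called in PE2 aortae. What size of difference could be detected there was not tested.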
